A study of Homo sapiens with 4 samples.

Results

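The genes of the mitochondrial genome were examined in HepG2, a human hepatocellular carcinoma cell line. All genes that the deposited tables place on the mitochondrial chromosome were taken, which gave 37 of the 58302 genes listed. They comprise 13 mRNA genes, 2 rRNA genes and 22 tRNA genes, and the rule uses only the chromosome of a gene. Wild-type HepG2 cells, grown in MEM with 10% FBS, received either melatonin at 1 mM or its solvent DMSO, for 24 h or for 48 h. Melatonin is the hormone of the pineal gland. Each of the 4 conditions is 1 library from polyadenylated RNA, so there are no replicates and a difference between a pair of libraries is given without a test. A joint fit of treatment and time over all 4 libraries, which would leave 1 residual degree of freedom, was not run. The study asked which transcripts respond to melatonin, and the time points also allow each treatment to be compared with itself at 24 h and 48 h.

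Human mitochondria hold many copies of a small circular genome that is transcribed from both strands into long RNAs spanning several genes. In these long RNAs the tRNAs sit between most of the mRNAs and rRNAs, and enzymes cut at the 5′ and 3′ ends of the tRNAs to release the RNAs in between. A mitochondrial poly(A) polymerase then adds short tails to the mRNAs, and for several of them the added A bases complete the stop codon. The mRNAs encode core subunits of respiratory complexes I, III and IV and of ATP synthase (complex V), whereas all other subunits of these complexes are encoded in the nucleus. The rRNAs and tRNAs serve the translation of these mRNAs inside the organelle.

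The positions of all 37 genes in the tables are those of the 16569 bp mitochondrial sequence of hg38 in GENCODE 44, and the sequences below are read from that reference, 5′ to 3′. The first set shows where an mRNA gene stops without a full stop codon and the next tRNA starts with 0 bases between them. Such ends occur in 6 of the 13 mRNAs, those whose length is not a multiple of 3. Capitals mark the incomplete stop codon, the bases before them are the end of the mRNA, and the bases after them are the start of the tRNA named second.
MT-ND1 to MT-TI, MT:4249-4277, plus strand: ccccctcaaaccTAagaaatatgtctgat
MT-ND2 to MT-TW, MT:5499-5526, plus strand: ctaataatcttaTagaaatttaggttaa
MT-CO3 to MT-TG, MT:9978-10005, plus strand: tgatgagggtctTactcttttagtataa
MT-ND3 to MT-TR, MT:10392-10419, plus strand: gactgaaccgaaTtggtatatagtttaa
MT-ND4 to MT-TH, MT:12125-12152, plus strand: gggttttcctctTgtaaatatagtttaa
MT-CYB to MT-TT, MT:15875-15902, plus strand: ctcaaatgggccTgtccttgtagtataa

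Reads from neighbouring genes can be hard to assign where the genes overlap. MT-ATP8 and MT-ATP6 share 46 bases, which are shown next with the start codon of MT-ATP6 and the stop codon of MT-ATP8 in capitals. MT-ND4L and MT-ND4 share another 7 bases, and reads in these bases can belong to either gene of a pair.
MT-ATP8 and MT-ATP6, MT:8527-8572, plus strand: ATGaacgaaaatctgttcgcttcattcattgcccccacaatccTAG

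The tRNA genes are 59 to 75 bases long, so a given FPKM rests on fewer reads than in longer genes. A set of tRNAs described with the results is shown with the anticodon in capitals. MT-TN, MT-TC, MT-TY, MT-TS1 and MT-TP lie on the minus strand and the others on the plus strand.
MT-TN, asparagine, MT:5657-5729: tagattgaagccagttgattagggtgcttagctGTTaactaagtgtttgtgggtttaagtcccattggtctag
MT-TC, cysteine, MT:5761-5826: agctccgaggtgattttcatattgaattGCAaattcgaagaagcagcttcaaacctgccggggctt
MT-TY, tyrosine, MT:5826-5891: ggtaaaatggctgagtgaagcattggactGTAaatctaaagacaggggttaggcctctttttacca
MT-TS1, serine, MT:7446-7514: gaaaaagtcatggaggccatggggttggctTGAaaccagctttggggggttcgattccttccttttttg
MT-TP, proline, MT:15956-16023: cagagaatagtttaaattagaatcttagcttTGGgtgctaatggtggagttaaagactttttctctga
MT-TR, arginine, MT:10405-10469: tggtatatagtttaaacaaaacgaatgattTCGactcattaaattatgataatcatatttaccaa
MT-TG, glycine, MT:9991-10058: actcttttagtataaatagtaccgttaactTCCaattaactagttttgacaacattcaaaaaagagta
MT-TV, valine, MT:1602-1670: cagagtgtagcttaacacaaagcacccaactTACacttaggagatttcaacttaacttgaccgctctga
MT-TL1, leucine, MT:3230-3304: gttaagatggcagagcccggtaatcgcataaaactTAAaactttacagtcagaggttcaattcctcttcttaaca
MT-TD, aspartate, MT:7518-7585: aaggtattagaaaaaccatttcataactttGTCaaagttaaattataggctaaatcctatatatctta

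Levels are given as FPKM (fragments per kilobase of a gene, relative to library size) as the authors deposited them. Read numbers were recovered from the steps of the FPKM values, and the reads on genes ranged from 21616676 to 23086025 per library. Intervals are exact 95% intervals from these reads, and they cover counting error only, not the spread between cultures. Markers of hepatocytes were high in all libraries, with 8 of 8 above 34 FPKM, whereas 0 of 6 markers of blood, endothelial and fibroblast cells reached 1 FPKM in any library. The highest of these was PECAM1, at 0.940 with melatonin for 48 h, and COL3A1 was listed at 0 in all libraries. A pair of the hepatocyte markers differed 2-fold between melatonin and DMSO at 48 h. AFP, the fetal serum protein, had 1131, 985, 1902 and 782 FPKM (DMSO 24 h, melatonin 24 h and then the same at 48 h), a log2 ratio of -1.28 at 48 h. TTR, which carries thyroid hormone, had 41.9, 46.8, 50.6 and 256 FPKM, a log2 ratio of 2.31. Their part in the results on mitochondrial genes was not tested.

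The mitochondrial genome supplied a large part of each library, and the part was smaller at 48 h than at 24 h. Its genes held 19.96% of the reads on genes with DMSO for 24 h (19.94% to 19.97%). With melatonin this share was 16.6% at the same time. The libraries of 48 h had 9.77% (DMSO) and 11.9% (melatonin). The share was thus lower with melatonin than with DMSO at 24 h and higher at 48 h. With 1 culture per condition, more mitochondrial RNA, less nuclear RNA per cell and a changed mix of cells cannot be told apart from these shares. The mRNAs alone held 16.5%, 13.7%, 7.92% and 9.75% of the reads with the 24 h libraries first and DMSO before melatonin at each time, which is the order of all sets of 4 values below. The rRNAs held 3.31%, 2.85%, 1.80% and 2.07%. The tRNAs held 0.118%, 0.0935%, 0.0472% and 0.0693%, so all 3 classes had their highest share with DMSO for 24 h and their lowest with DMSO for 48 h. As a share of the summed FPKM, in which short genes weigh more, the 37 genes held 53.0%, 46.7%, 32.2% and 37.1%.

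**Figure D1:**
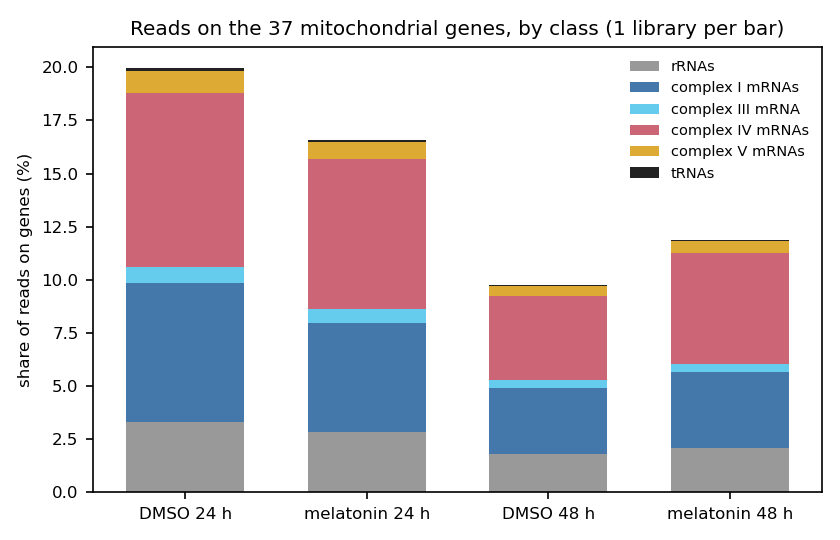
Share of the reads on genes (%) that fell on the 37 mitochondrial genes in each of the 4 libraries, 1 library per bar. Colours stack the rRNAs, the mRNAs of complexes I, III, IV and V, and the tRNAs. The bars reach 19.96%, 16.6%, 9.77% and 11.9%, and the mRNAs of complexes IV and I make up most of each bar.

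Other values that describe the libraries also differed between them, and their part in the shares was not tested. The library size implied by the deposited FPKM was 0.849, 0.888, 0.950 and 0.973 of the reads on genes. RN7SL2, a signal recognition particle RNA without a poly(A) tail, stood at 4982, 5254, 6510 and 8064 FPKM. RN7SL1, RN7SK, RMRP and RPPH1, further RNAs without a tail, were listed at 0 in all libraries. The nuclear-retained RNAs were higher with melatonin at both times, with MALAT1 at 21.6, 35.6, 20.9 and 26.9 FPKM and NEAT1 at 9.89, 28.5, 13.5 and 62.8 FPKM.

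Among the mRNAs, those of cytochrome c oxidase (complex IV, which passes electrons to oxygen) were the most abundant. MT-CO1, which encodes the catalytic subunit, had the highest FPKM of all genes of both genomes in each library, at 41708, 35377, 19326 and 25023. MT-CO2, whose product receives electrons from cytochrome c, was second among the mRNAs in each library, at 23907, 17591, 11140 and 11445 FPKM. MT-CO3, a core subunit without metal centres, had 20523, 16402, 5561 and 9114 FPKM. It ranked 3 or 4 among the mRNAs in every library except DMSO 48 h, where it ranked 7. Together the complex IV mRNAs took 49.7%, 51.7%, 50.1% and 53.4% of the reads on mitochondrial mRNAs.

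The 7 subunits of complex I, which oxidises NADH, took 39.5%, 37.6%, 39.5% and 36.6% of these reads. MT-ND4L had 21118, 16270, 7685 and 10554 FPKM, and MT-ND4, which lies next to it on the same mRNA, had 18524, 14078, 7286 and 8547 FPKM. Both were among the highest 5 in each library. MT-ND3 had 14851, 10378, 8194 and 8478 FPKM. MT-ND1 had 7961, 6373, 4540 and 4253 FPKM, and MT-ND2 had 8623, 6506, 4692 and 4352 FPKM. These genes lie nearest to the rRNAs and were the only mRNAs that were lowest with melatonin for 48 h rather than with DMSO for 48 h. MT-ND5, the longest mRNA, had 8999, 6595, 3126 and 3929 FPKM. MT-ND6, the only mRNA gene on the minus strand, had 13328, 9856, 5478 and 5951 FPKM. Whether reads were counted by strand is not given in the sources used here, so for MT-ND6 and the minus-strand tRNAs RNA of the gene and RNA antisense to it cannot be told apart.

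MT-CYB, which encodes cytochrome b of complex III, had 7870, 6216, 3197 and 3716 FPKM, and held 4.61%, 4.61%, 4.38% and 4.23% of the mitochondrial mRNA reads. MT-ATP6, which forms part of the proton path of ATP synthase, had 17092, 13449, 7167 and 8154 FPKM. MT-ATP8, its overlapping partner, had the lowest FPKM of all 13 mRNAs in each library, at 2096, 1399, 701 and 790. The ratio of MT-ATP8 to MT-ATP6 was 0.123, 0.104, 0.0978 and 0.0969. MT-ATP8 is 207 bp long and shares bases with MT-ATP6. How the counting of reads in so short an overlapping gene bears on its FPKM was not tested. In FPKM the highest mRNA exceeded the lowest, MT-ATP8, 19.9-fold, 25.3-fold, 27.6-fold and 31.7-fold. Of the 12 pairs of neighbours in the order of FPKM, the intervals overlapped for 0 pairs with DMSO and for 1 pair with melatonin at each time (MT-CO3 and MT-ND4L at 24 h, MT-ND4 and MT-ND3 at 48 h). In each library 12 of the 13 mRNAs were among the 20 genes with the highest FPKM of both genomes.

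**Figure D2:**
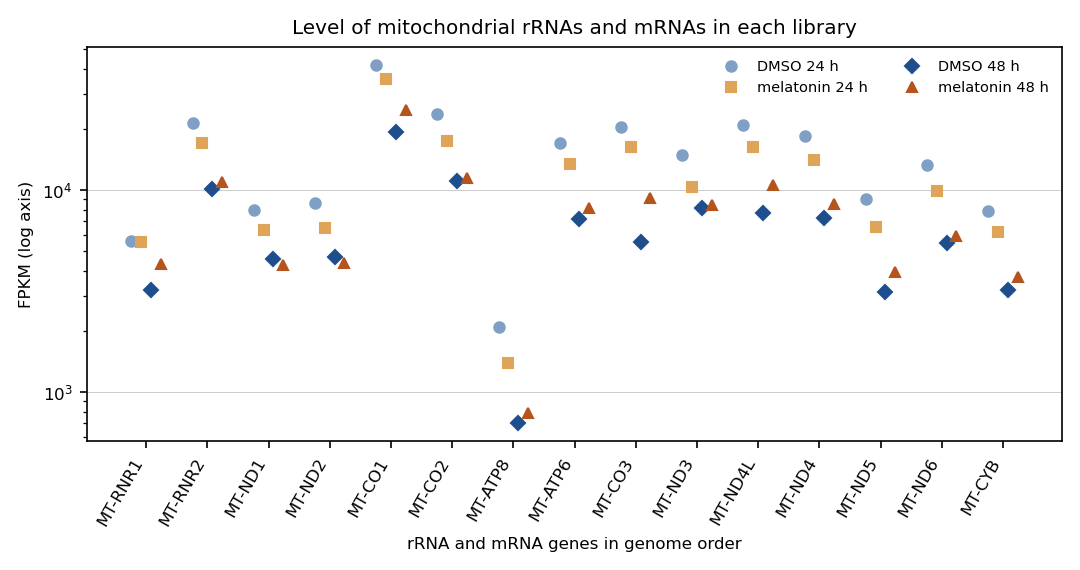
FPKM (log axis) of the rRNA and mRNA genes in genome order, with 1 point per library. MT-CO1 is the highest and MT-ATP8 the lowest mRNA in each library. The DMSO 48 h points lie lowest for all genes except MT-ND1 and MT-ND2, where the melatonin 48 h points lie lowest.

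The small ribosomal subunit RNA MT-RNR1 had 5597, 5540, 3219 and 4316 FPKM. The large subunit RNA MT-RNR2 had 21567, 17206, 10170 and 11030 FPKM. The ratio of MT-RNR2 to MT-RNR1 was 3.85, 3.11, 3.16 and 2.56, so it was lower with melatonin than with DMSO at both times. Both RNAs are needed in equal number in the ribosome. How the selection of polyadenylated RNA acted on each was not tested, so these levels are no measure of ribosomes.

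With melatonin for 24 h, mRNAs of the mitochondrial genome were lower than with DMSO, each by less than 2-fold. Changes are given as log2 of the ratio of FPKM + 1, and a gene was counted as changed when its FPKM reached 1 in one library or both and the difference was at least 2-fold. All 13 mRNAs lay below 0, with a median of -0.40, whereas the median of all 13582 genes compared was 0.02. The range ran from -0.24 for MT-CO1 (0.848 of the DMSO level, 0.846 to 0.850) to -0.58 for MT-ATP8 (0.667, 0.645 to 0.690). MT-ND3 stood at -0.52, MT-ND5 at -0.45, MT-CO2 at -0.44 and MT-ND6 at -0.44. MT-ND2 stood at -0.41, MT-ND4 at -0.40, MT-ND4L at -0.38 and MT-ATP6 at -0.35. MT-CYB stood at -0.34, MT-CO3 at -0.32 and MT-ND1 at -0.32. The mRNAs of the 4 complexes thus lay in a narrow band, and the largest and smallest differences were 0.35 apart on the log2 scale. MT-RNR2 stood at -0.33, and MT-RNR1 at -0.01, which turned to 0.05 with libraries scaled to the plain sum of reads and to 0.16 on the TPM scale. None of the 13 mRNAs or 2 rRNAs differed 2-fold, against 1.42% of all genes that were higher and 2.93% that were lower by this rule.

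With melatonin for 48 h, most mitochondrial mRNAs were higher than with DMSO for 48 h, again each by less than 2-fold. In the deposited FPKM 11 of 13 lay above 0, with a median of 0.19 against -0.02 over all 13805 genes compared, and on the TPM scale MT-CO2 and MT-ND3 moved just below 0. MT-CO3 differed most, at 0.71, or 1.64 times the DMSO level (1.63 to 1.65). MT-ND4L followed at 0.46, MT-CO1 at 0.37, MT-ND5 at 0.33 and MT-ND4 at 0.23. MT-CYB stood at 0.22, MT-ATP6 at 0.19, MT-ATP8 at 0.17 and MT-ND6 at 0.12. MT-ND3 stood at 0.05 and MT-CO2 at 0.04, close to equal levels. MT-ND1 and MT-ND2 were lower with melatonin, at -0.09 (0.937 of the DMSO level) and -0.11 (0.928). The mRNAs were spread over 0.82 on the log2 scale, more widely than at 24 h. MT-RNR1 stood at 0.42 and MT-RNR2 at 0.12. None of these 15 genes differed 2-fold, where 2.39% of all genes were higher and 3.32% were lower. In all, 18 of the 37 genes, 11 of the 13 mRNAs among them, had opposite signs at 24 h and 48 h with both intervals off equal levels. Intervals are narrow where reads are many, and the same held for 7.23% of all genes compared at both times and for 17.9% of the nuclear protein-coding genes that had 3000 reads or more in all libraries. Except for MT-ATP8, the mRNAs had 50052 reads or more in each library, so these nuclear genes are not matched to them for depth. The difference between the times was not tested.

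**Figure D3:**
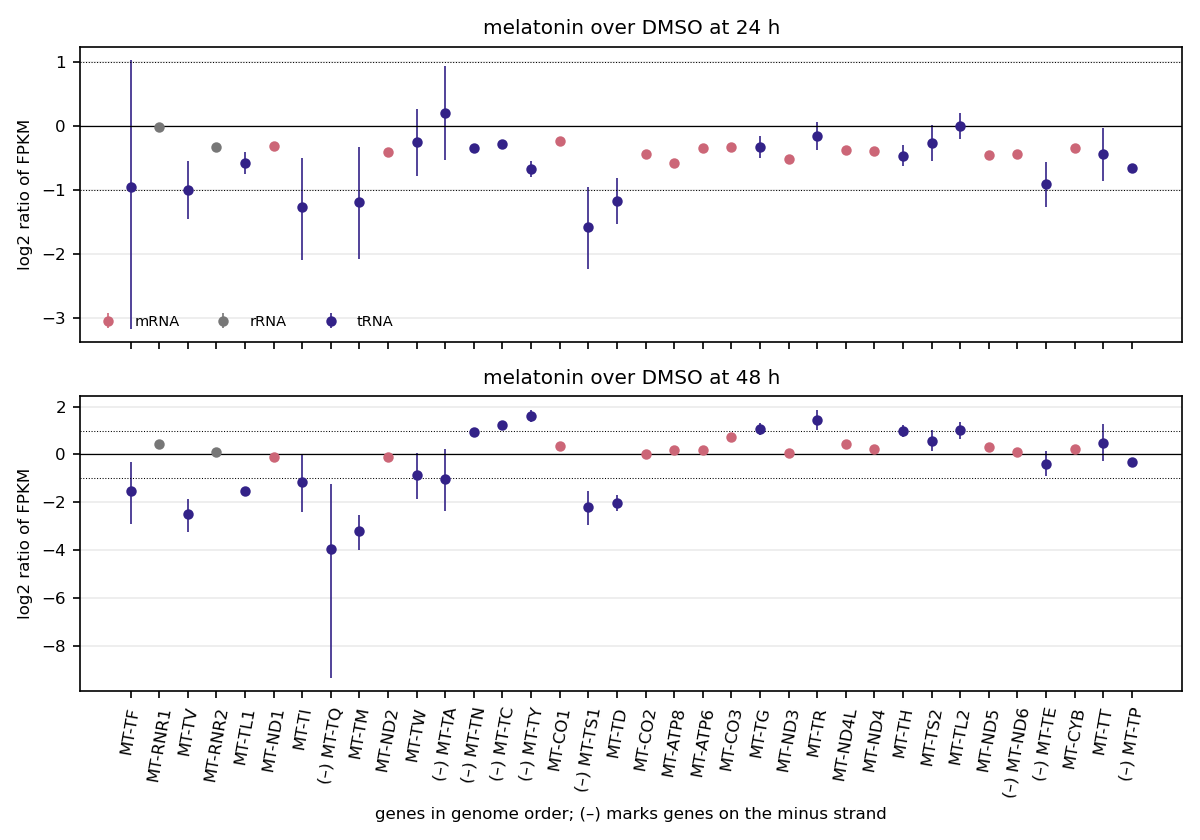
Log2 ratio of FPKM with melatonin to DMSO for each mitochondrial gene in genome order, at 24 h (upper panel) and 48 h (lower panel). Lines are 95% counting intervals and dotted lines mark 2-fold; the intervals of mRNAs and rRNAs are narrower than the points. At 24 h the mRNAs lie between -0.58 and -0.24, and at 48 h between -0.11 and 0.71, where MT-CO2 and MT-ND3 turn below 0 on the TPM scale.

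The comparison of MT-CO3 with its neighbours shows how unequal the mRNAs were at 48 h. The ratio of MT-CO3 to MT-CO2 was 0.858 (DMSO) and 0.932 (melatonin) at 24 h, and 0.499 (0.495 to 0.503) and 0.796 (0.791 to 0.802) at 48 h. The ratio of MT-CO3 to MT-ATP6, the gene just before it, was 1.20, 1.22, 0.776 and 1.12. MT-CO3 was therefore lowest against both in the DMSO 48 h library, and next lowest with melatonin for 48 h. The ratio of MT-CO1 to MT-ND1 was likewise lowest with DMSO for 48 h, at 5.24, 5.55, 4.26 and 5.88. MT-ND6 over MT-ND5, which lie on opposite strands, was highest in the same library, at 1.48, 1.49, 1.75 and 1.51.

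The largest differences of the mitochondrial mRNAs lay between the DMSO libraries. From 24 h to 48 h with DMSO, all 13 mRNAs were lower, with a median of -1.28 against 0.00 over all 13854 genes compared. Of these, 10 passed 2-fold, and the share of all genes that were lower by this rule was 4.24%, with 3.50% higher. The count was 8 with libraries scaled to the plain sum of reads, where MT-CO1 and MT-CO2 no longer passed, and 3 on the TPM scale (MT-CO3, MT-ATP8 and MT-ND5). It stayed at 10 with libraries scaled to reads outside the mitochondrial genome and with fold changes centred on the median of all genes. MT-CO3 was at 0.271 of its 24 h level (0.269 to 0.273), MT-ATP8 at 0.334, MT-ND5 at 0.347 and MT-ND4L at 0.364. MT-ND4 was at 0.393, MT-CYB at 0.406, MT-ND6 at 0.411 and MT-ATP6 at 0.419. MT-CO1 and MT-CO2 were at 0.463 and 0.466. The mRNAs that did not pass 2-fold were MT-ND1 at 0.570, MT-ND3 at 0.552 and MT-ND2 at 0.544. MT-RNR2 passed 2-fold, at 0.472, and MT-RNR1 did not, at 0.575. With the plain sum of reads and on the TPM scale MT-RNR2 did not pass either, and with reads outside the mitochondrial genome it passed.

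With melatonin, the 13 mRNAs were also lower at 48 h than at 24 h, and 0 of them passed 2-fold. Their median was -0.72 against -0.04 over all 13489 genes compared, where 2.45% were higher and 1.71% lower at least 2-fold. MT-CO3 was again the lowest, at 0.556 of its 24 h level, followed by MT-ATP8 at 0.565 and MT-ND5 at 0.596. MT-ND3 was closest to its 24 h level, at 0.817, with MT-CO1 at 0.707. The other 8 mRNAs lay between 0.598 and 0.669. MT-RNR1 was at 0.779 and MT-RNR2 at 0.641. The deposited scaling matters for the size of these time differences. Rescaling to TPM shifted the median of all genes by 0.46 (DMSO) and 0.27 (melatonin), and scaling to the plain sum of reads by 0.14 and 0.11. Scaling to reads outside the mitochondrial genome shifted it by -0.01 and 0.05. The TPM scale is set by the summed FPKM, which includes the mitochondrial genes. At 24 h and 48 h they held 53.0% and 32.2% of it with DMSO, and 46.7% and 37.1% with melatonin. Relative to the median of all genes the mRNAs stood at -1.29 with DMSO and -0.68 with melatonin.

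**Figure D4:**
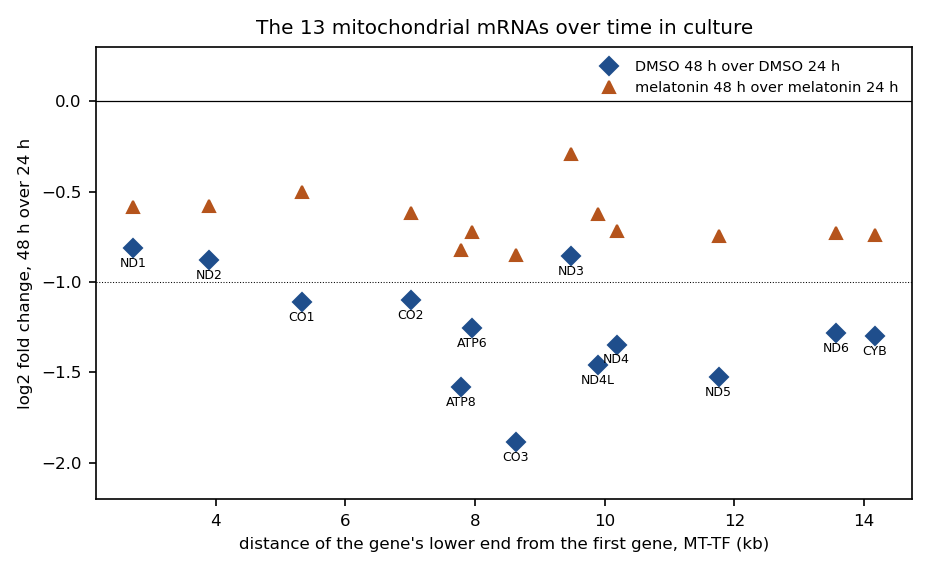
Log2 fold change of FPKM + 1 from 24 h to 48 h for each of the 13 mRNAs, with DMSO (diamonds) and melatonin (triangles), against the distance of the gene from the first gene, MT-TF, in kilobases. The dotted line marks 2-fold. All points lie below 0, and those with DMSO lie below those with melatonin for each gene.

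The relation of position along the genome to these differences ranged from weak to moderate. Over the 12 plus-strand mRNAs, distance from the first gene and the log2 fold change with DMSO had a Pearson r of -0.52 and a Spearman rho of -0.54. With melatonin over time the values were -0.30 and -0.46. For melatonin over DMSO they were -0.19 and -0.22 at 24 h and 0.45 and 0.55 at 48 h. The points come from the same pair of libraries and from genes on shared RNAs, so these correlations are a description. MT-ND1 and MT-ND2, nearest to the first gene, had a median of -0.84 from 24 h to 48 h with DMSO, and the other 10 plus-strand mRNAs had one of -1.32. MT-ND3, in the middle of the genome, stood apart from its neighbours MT-CO3 and MT-ND4L in both treatments.

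The tRNAs varied far more than the mRNAs, and a few of them held most of the tRNA reads. MT-TN, MT-TC and MT-TP took 80.1%, 81.4%, 73.5% and 84.1% of the tRNA reads, and the 8 minus-strand tRNA genes took 86.3%, 86.4%, 77.0% and 88.0%. MT-TC had 6426, 5280, 1727 and 4038 FPKM, MT-TN 6405, 5038, 1571 and 3049, and MT-TP 3296, 2082, 2011 and 1610. MT-TA, which lies beside MT-TN on the same strand, had 23.7, 27.2, 11.9 and 5.87 FPKM, so that MT-TN exceeded it by 132-fold to 519-fold. MT-TK was listed at 0 in all libraries. Mature tRNAs carry no poly(A) tail, and whether these reads came from mature tRNAs or from longer RNAs that hold them was not tested.

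At 24 h, tRNAs were mostly lower with melatonin, as the mRNAs were. Of 21 tRNAs compared, 20 lay below 0 (median -0.58), and for 15 the interval of the ratio lay wholly below equal levels. Genes under 100 bp of both genomes also leaned lower, with 240 of 401 below 0 and a median of -0.33. None was higher and 5 were lower at least 2-fold, whereas among the 401 compared genes under 100 bp of both genomes 21.4% were higher and 31.2% were lower. The share of tRNAs past 2-fold was therefore no larger than that of short genes in general. These short genes were not matched to the tRNAs for reads. On a gene of 70 bp, 3 reads equal 1.93 to 2.33 FPKM, so a short gene could be compared on fewer reads than that. Of the 21 tRNAs, 16 had at least 50 reads in either library. MT-TS1 (serine) had 81, 30, 100 and 22 reads, at 0.335 of the DMSO level at 24 h (0.213 to 0.515). MT-TD had 200, 98, 359 and 90 reads, at 0.443 (0.345 to 0.568). The other 3, MT-TI, MT-TM and MT-TQ, had under 50 reads in both libraries. MT-TQ had 7, 0, 15 and 1 reads. With a floor of 3 reads in place of 0, it was 2.58-fold lower with melatonin at 24 h. This value is no lower bound, since the counting interval of the ratio, which also takes in the error of the 7 reads, reached up to 0.628. MT-TQ was low again at 48 h (ratio 0.0658, 0.00156 to 0.428). On the TPM scale MT-TR and MT-TL2, and with the plain sum of reads MT-TL2, lay above 0 at 24 h.

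At 48 h, the tRNAs were divided. Melatonin went with higher levels of 4 and lower levels of 8 at least 2-fold, whereas 21.2% of the 400 compared genes under 100 bp were higher and 24.5% were lower. In all, 57.1% of the tRNAs compared passed 2-fold, against 45.8% of the short genes, which were not matched for reads. Of the 15 tRNAs with at least 50 reads in either library, 4 were higher, 5 were lower and 6 did not pass 2-fold.

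The 4 higher tRNAs were MT-TY, MT-TC, MT-TR and MT-TG. MT-TY had 1063, 666, 120 and 367 FPKM, and at 48 h it was 3.05 times as high with melatonin (2.57 to 3.64). MT-TR had 281, 251, 47.7 and 130 FPKM, a ratio of 2.73 at 48 h (2.06 to 3.66), and MT-TG had 493, 392, 119 and 249 FPKM, a ratio of 2.09 (1.74 to 2.51). MT-TC, next to MT-TY, had a ratio of 2.34 (2.23 to 2.45), and MT-TN, next to MT-TC, had one of 1.94. MT-TA, on the other side of MT-TN, had 18 and 9 reads at 48 h, a ratio of 0.494 whose interval included equal levels (0.195 to 1.16). The tRNAs between MT-ND4 and MT-ND5 did not pass the rule, and MT-TH had 553, 400, 133 and 262 FPKM, MT-TL2 had 293, 292, 68.1 and 136, and MT-TS2 had 208, 172, 55.6 and 83.2. In each of these genes except MT-TA the DMSO 48 h library was the lowest of the 4, as for most mRNAs.

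All 8 genes of the lower group at 48 h lay before MT-CO2 in genome order, but so did MT-TY and MT-TC of the higher group, and MT-TN. MT-TL1, between MT-RNR2 and MT-ND1, had 479, 319, 693 and 244 FPKM, a ratio of 0.352 (0.313 to 0.394), and MT-TV, between the rRNAs, had 95.5, 47.9, 81.3 and 14.4 FPKM, a ratio of 0.177 (0.107 to 0.280). MT-TD had 160, 71.1, 241 and 59.6 FPKM, a ratio of 0.248 (0.194 to 0.313), and MT-TS1 had 63.9, 21.4, 66.1 and 14.4 FPKM, a ratio of 0.217 (0.13 to 0.347). MT-TM, with 37, 18, 165 and 18 reads, had a ratio of 0.108 (0.0623 to 0.176). These genes were lower with melatonin at both times, and MT-TL1, MT-TD, MT-TS1 and MT-TM were highest with DMSO for 48 h, where the mRNAs were lowest. MT-TI, MT-TQ and MT-TF, the remaining members of the group, had 23 reads or fewer in either library. MT-TP stood at 0.801 at 48 h and did not pass the rule. MT-TE had 147, 77.9, 47.6 and 36.6 FPKM, MT-TT had 92.4, 68.0, 18.0 and 25.2 FPKM, and MT-TW had 53.7, 45.0, 19.4 and 10.6 FPKM. The intervals of these 3 genes at 48 h included equal levels.

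Over time with DMSO, 12 of the 21 tRNAs compared were lower and 2 were higher at least 2-fold, with a median of -1.42. Among genes under 100 bp, 27.2% were lower and 24.5% higher. The short genes were not matched for reads in the comparisons over time either. MT-TY was lowest, at 0.113 of its 24 h level (0.0960 to 0.133), followed by MT-TR at 0.170 and MT-TT at 0.194. MT-TL2 was at 0.232, MT-TH and MT-TG at 0.242, MT-TN at 0.245, MT-TS2 at 0.268 and MT-TC at 0.269. The higher tRNAs were MT-TM, at 3.73 (2.60 to 5.49), and MT-TF, which rested on 7 and 23 reads. With melatonin over time, 8 of 20 were lower and 0 higher, against 22.1% lower and 30.1% higher among short genes. These were MT-TV, MT-TI, MT-TW, MT-TA, MT-TS2, MT-TL2, MT-TE and MT-TT, with ratios from 0.216 to 0.483. Only 4 of the 8 passed 2-fold with libraries scaled to the plain sum of reads. On the TPM scale MT-TV moved above 0 with DMSO over time and MT-TM and MT-TD did with melatonin over time, and MT-TM also did with the plain sum of reads.

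Nuclear genes that transcribe, copy and process the mitochondrial genome were compared in the same way. Of 47 such genes, 46 could be compared between melatonin and DMSO, and 0 passed 2-fold on FPKM + 1 at either time, as for the mitochondrial mRNAs. Among all nuclear protein-coding genes 0.630% passed 2-fold in either direction at 24 h and 2.39% at 48 h. The medians of the list were 0.01 at 24 h and -0.05 at 48 h, and they turned to -0.02 (24 h, centred on the median of all genes) and 0.02 (48 h, scaled to reads outside the mitochondrial genome). With a pseudocount of 0.1 and on the TPM scale, PPARGC1A passed at 24 h (higher) and PRORP at 48 h (lower). The interval of the plain FPKM ratio, as log2, was 1.05 to 1.36 for PPARGC1A at 24 h. For PRORP at 48 h it was -1.36 to -0.94. PRORP is a protein subunit of the enzyme that cuts the 5′ ends of tRNAs. PRORP, chosen after its values were seen and listed under its older name KIAA0391, had 2.44, 1.73, 4.02 and 1.81 FPKM. Its log2 ratio of FPKM + 1 at 48 h was -0.83. TFAM, which packages the genome and starts transcription, had 18.5, 20.4, 17.6 and 17.2 FPKM. POLRMT, the RNA polymerase of mitochondria, had 31.8, 27.6, 24.3 and 21.3 FPKM, and TEFM, its elongation factor, had 1.49, 1.59, 1.4 and 1.8. LRPPRC, which stabilises mitochondrial mRNAs together with SLIRP, had 50.01, 53.3, 58.0 and 53.8 FPKM, and SLIRP had 9.71, 8.26, 10.0 and 10.4. MTPAP, the mitochondrial poly(A) polymerase, had 3.89, 3.76, 3.22 and 3.26 FPKM, and PNPT1, which degrades mitochondrial RNA, had 9.46, 10.8, 9.67 and 9.57. The differences of these 7 genes lay between -0.37 and 0.30 on the log2 scale in the 4 comparisons, whereas the mitochondrial mRNA median ranged from -1.28 to 0.19. Over time the medians of the list were -0.04 with DMSO and -0.11 with melatonin. They turned to 0.09 and 0.01 with the plain sum of reads, where the medians of all genes were 0.14 and 0.08. On the TPM scale they turned to 0.40 and 0.15, where the medians of all genes were 0.46 and 0.23. On the TPM scale ESRRA, PRORP and PPARGC1A were higher at least 2-fold with DMSO over time. The only gene of the list that passed 2-fold on FPKM + 1 with the deposited scaling was PPARGC1A, a coactivator of genes for mitochondrial biogenesis. It had 2.41, 5.54, 6.53 and 9.44 FPKM. On the log2 scale of FPKM + 1 it was higher by 1.14 at 48 h than at 24 h with DMSO, when the mitochondrial mRNAs were lower. With melatonin over DMSO it was higher by 0.94 at 24 h and 0.47 at 48 h on the same scale.

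Nuclear genes for subunits of the same respiratory complexes were compared next. All 76 genes of the list were found, with a median FPKM of 20.7, 18.4, 16.7 and 19.1. The median of the 13 mitochondrial mRNAs was 717, 564, 334 and 427 times as high. None of the nuclear subunits passed 2-fold on FPKM + 1 in any comparison with the deposited scaling. Of all nuclear protein-coding genes, 0.630% and 2.39% passed for melatonin over DMSO at 24 h and 48 h, and 4.34% (DMSO) and 0.926% (melatonin) passed over time. On the TPM scale NDUFA13 and NDUFC2 passed with DMSO over time and NDUFA7 with melatonin over time, and NDUFA7 also did with a pseudocount of 0.1. With melatonin over DMSO their median was -0.04 at 24 h, with 27 of 74 above 0, and 0.07 at 48 h, with 50 of 75 above 0. Over time their median was -0.19 with DMSO, with 54 of 74 below 0, and -0.07 with melatonin, with 45 of 75 below 0. For melatonin over DMSO, 6067 of 10468 nuclear protein-coding genes lay above 0 at 24 h and 5175 of 10569 at 48 h. Their medians were 0.04 and -0.01. Over time 5399 of 10526 lay below 0 with DMSO (median -0.01) and 6265 of 10479 with melatonin (median -0.06). With melatonin over time the subunits thus lay close to nuclear genes in general. The mitochondrial mRNAs had medians of the same sign as the nuclear subunits and of larger size in each of these comparisons (-0.40, 0.19, -1.28 and -0.72). On the TPM scale the nuclear medians turned above 0 at 24 h (0.12) and over time (0.27 with DMSO and 0.20 with melatonin). They also did with the plain sum of reads at 24 h (0.01) and with melatonin over time (0.06). The medians of all genes compared were higher in each case. They were 0.17, 0.46 and 0.23 on the TPM scale, and 0.08 and 0.08 with the plain sum of reads. The subunits of both genomes share their libraries, and the difference between these sets was not tested.

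**Figure D5:**
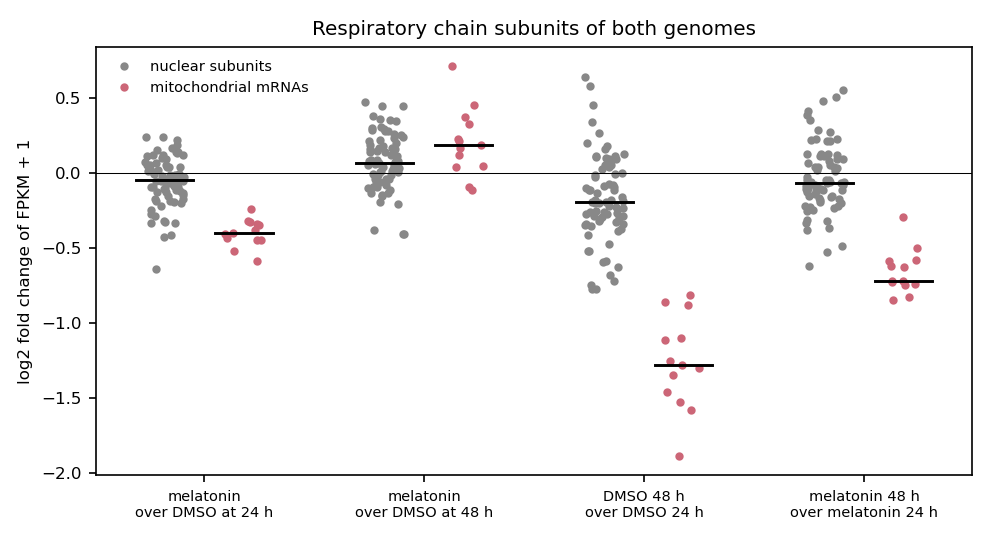
Log2 fold change of FPKM + 1 for nuclear genes of respiratory chain subunits (grey) and the 13 mitochondrial mRNAs (red) in each of the 4 comparisons, with 1 point per gene, spread sideways for legibility, and a bar at the median. The mitochondrial medians are -0.40, 0.19, -1.28 and -0.72, and the nuclear medians are -0.04, 0.07, -0.19 and -0.07. On the TPM scale all 4 nuclear medians lie above 0, and the medians of all genes are 0.17, -0.06, 0.46 and 0.23. On that scale MT-CO2 and MT-ND3 turn below 0 in melatonin over DMSO at 48 h.

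Copies of mitochondrial DNA in the nuclear genome can take reads from these genes or lend reads to them. The tables hold 392 genes named as such copies, and their reads came to 0.583%, 0.602%, 0.569% and 0.575% of those on the mitochondrial genes. The copy with the most reads in each library was MTATP6P1 on chromosome 1 (633696 to 634376), which is identical to MT-ATP6 at 98.5% of bases and had 5.47%, 5.63%, 5.57% and 5.45% as many reads. MTND2P28, 98.4% identical to MT-ND2, had 4.45%, 4.28%, 3.45% and 4.20% as many, and MTCO1P12, 98.7% identical to MT-CO1, had 0.455%, 0.538%, 0.441% and 0.476%. With the reads of the copies added back, the median of the 13 mRNAs was -0.40 at 24 h and 0.18 at 48 h for melatonin over DMSO.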

How the data were processed

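HepG2 cells were sequenced as 1 library for each of DMSO and melatonin (1 mM) at 24 h and 48 h, grouped by the labels. The authors purified polyadenylated RNA and deposited FPKM per Ensembl gene with the gene length (in bp, method not given in the sources used here). Their methods name MapSplice on hg38 and Cufflinks, whereas the submitters' processing notes name TopHat2 2.0.9, Bowtie2 2.0.6, Cufflinks 2.1.1 and Cuffdiff 2.1.1, so which aligner made the values is not settled. In each library FPKM multiplied by length came in whole multiples of 1 step for 100% of the values above 0 (tolerance 0.02 of a step), which gave the reads. Implied library sizes were 18357838 (DMSO) and 20283332 (melatonin) at 24 h, and 21930408 and 22205042 at 48 h, and 3 reads on a gene of 1 kb equal an FPKM of 0.135 to 0.163.

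Fold changes were log2 ratios of FPKM + 1. They understate the change of genes with low FPKM. A gene was compared where its FPKM reached 1 in one library or both and counted as changed at 2-fold. Shares have exact binomial intervals and levels exact Poisson intervals. The interval of a ratio is that of the plain FPKM ratio, from the exact binomial interval conditional on both read numbers. With 1 library per group each comparison is a value without a test, and no p-value was computed. All mRNAs and rRNAs, and all tRNAs with 50 reads in any library, were named with values. Of the nuclear list, genes past 2-fold and 7 fixed genes were named. PRORP, ESRRA, the 3 nuclear NDUF genes and both hepatocyte markers with a ratio were named after their values were seen. The members and lists were chosen with earlier results of these data known. Alternatives were the pseudocount, the filter, the fold threshold and 4 other scalings. Adding the reads of nuclear copies was chosen after seeing the data. Scripts (Python 3.11.15, numpy 2.4.6, pandas 2.3.3, scipy 1.17.1, matplotlib 3.10.9, biopython 1.88) were tested on simulated data. Sequences are from hg38. A protein sequence table was not used here.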

Additional observations from a re-analysis of the deposited data

Results flagged for a closer look

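The difference between melatonin and DMSO had opposite signs at 24 h and 48 h for 18 of the 37 mitochondrial genes, with both 95% counting intervals off equal levels. These were 11 mRNAs, 2 rRNAs and 5 tRNAs (MT-TN, MT-TC, MT-TY, MT-TG and MT-TH), each lower with melatonin at 24 h and higher at 48 h. The median log2 fold change of the 13 mRNAs was -0.40 at 24 h and 0.19 at 48 h. The same rule held for 7.23% of all genes compared at both times and for 17.9% of the nuclear protein-coding genes that had 3000 reads or more in all libraries. These nuclear genes are not matched for depth to the mRNAs, which except for MT-ATP8 had 50052 reads or more in each library. The difference between the time points was not tested. Under other scalings MT-RNR1 at 24 h and MT-CO2 and MT-ND3 at 48 h turn sign.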

How the results depend on the processing

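No value reversed its sign among the medians of the 13 mRNAs. For melatonin over DMSO at 24 h the median of -0.40 became -0.33 with libraries scaled to the plain sum of reads, -0.42 centred on the median of all genes and -0.22 on the TPM scale. At 48 h the median of 0.19 became 0.22 with the plain sum of reads, 0.26 with reads outside the mitochondrial genome, 0.21 centred and 0.13 on the TPM scale. Over time with DMSO, -1.28 became -1.12 with the plain sum and -0.78 on the TPM scale. Over time with melatonin, -0.72 became -0.59 with the plain sum, -0.67 with reads outside the mitochondrial genome, -0.68 centred and -0.44 on the TPM scale. Each of these scalings applies 1 factor to a whole library or 1 shift to all fold changes. Genes with low FPKM can still move by another amount, since the same pseudocount is added after rescaling.

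The number of mitochondrial genes past the threshold at 24 h, 5, became 10 at a threshold of 1.5-fold, 2 with at least 50 reads and 3 on the TPM scale. Over time with melatonin, 8 became 24 at 1.5-fold and 4 with the plain sum of reads. The counts of 12 (melatonin over DMSO at 48 h) and 25 (DMSO over time) stayed within 1.5 times under all alternatives run. The mitochondrial share of reads became 17.4% (DMSO) and 14.3% (melatonin) at 24 h and 8.26% and 10.2% at 48 h among protein-coding genes. In the same order it became 53.0%, 46.7%, 32.2% and 37.1% of the summed TPM. No paired analysis was possible because the groups of each comparison share 1 replicate number. A fit over all libraries with time as a block, which would leave 1 residual degree of freedom, was not run. With 1 library per group no replicate could be left out. Depth limits the tRNAs under 50 reads, whose ratios carry wide intervals, and not the mRNAs.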
